A study of Mus musculus with 4 samples.

Results

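The genes described are 8 components of insulin signalling and glucose uptake, which are Insr, Irs1, Irs2, Pik3r1, Akt2, Slc2a1, Slc2a4 and Pck1. They were taken by gene symbol, as every probe that the platform annotation assigns to a member, out of 19057 genes with an annotated probe. The 8 genes have 15 probes, of which 6 probes of 4 genes (Insr, Irs2, Pik3r1 and Slc2a1) were detected (p under 0.01 on 1 or more arrays) and could be tested, among 9975 such genes. The other 4 genes (Irs1, Akt2, Slc2a4 and Pck1) stayed below that limit in every library.

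RNA came from flow-sorted stromal vascular cells of adipose tissue of mice aged 2 months, and was hybridised to BeadChips of the Illumina Mouse-6 V2 type. The labels give the strain as Black 6, and the study's methods give a mixed C57BL/6-129/SV background. Of the 4 libraries, there are null GFP+ 1 and null GFP+ 3 (labelled PPARG null, GFP+ cells), het GFP+ 2 (labelled PPARG het, GFP+ cells) and null GFP− 3 (labelled PPARG null, GFP− cells). All animals carried the AdipoTrak reporter, in which a tetracycline transactivator knocked into one PPARγ allele drives a histone H2B-GFP from TRE-H2B-GFP, so GFP marks cells in which the PPARγ locus has been active, and the animals labelled het carry that allele too. The study's methods pair a floxed PPARγ allele with Sox2-Cre, which acts in the epiblast, for the null animals of the array, whereas its results name TRE-Cre, which acts only in reporter-positive cells. Which Cre driver produced the null libraries was not settled by the labels. Cells of several mice were sorted for each group. Nothing ties a library to 1 animal, so the spread between the 2 null GFP+ libraries may be technical. The limma p-values combine each probe's own spread there with a spread pooled over all tested probes, which carries more weight. They assume the same spread for the het GFP+ and null GFP− libraries.

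The level of Pparg and the mix of cell markers in the libraries touch every direction given here. Pparg, the targeted gene, went against the genotype labels, since its brightest probe had intensities of 3217 and 2479 under the null GFP+ label, against 188 under the het GFP+ and 209 under the null GFP− label. Groups are therefore named as the labels name them, and directions hold for the labels only. Marker levels also differed, as intensities summed over the tested probes of a list. Fat cell markers (8 genes) summed to 8967 and 18406 in null GFP+ 1 and 3, 2041 in het GFP+ and 1970 in null GFP−, mast cell and neutrophil markers (13 genes) to 1773 and 1731 against 93691 and 94360, and macrophage markers (11 genes) to 4915 and 2525 against 23585 and 14693. Endothelial markers (11 genes) summed to 13984 and 12374 against 7969 and 5818. Within that list the bright gene Tek went the other way, at 3061 and 2097 against 5293 and 3815. Skeletal muscle markers (9 genes) summed to 1443 and 1810 against 6365 and 1802. Mural markers (9 genes) summed to 6470 and 10761 against 4840 and 8530, and 1 of them (Notch3) passed limma's adjusted p under 0.05, higher in null GFP+ in both comparisons. Progenitor and stromal markers (11 genes, all above background in every library) summed to 198110 and 197360 against 212730 and 216490, and 1 of them (Pi16) passed, lower in null GFP+ in both comparisons. In sorted material such as this, fewer cells of a type and less RNA per cell cannot be told apart, and the part of these cells in any result below was not tested.

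Insulin binds a receptor tyrosine kinase on the cell surface, which phosphorylates docking proteins of the IRS family. These recruit phosphatidylinositol 3-kinase (PI3K), the lipid product of PI3K brings the kinase AKT to the membrane, and in fat and muscle AKT releases vesicles that carry the glucose transporter GLUT4 to the surface. Fat cells use the glucose to make glycerol phosphate and fatty acids for storage, and can also build glycerol phosphate from pyruvate through phosphoenolpyruvate carboxykinase. Progenitor cells are known for taking up glucose mostly through GLUT1, and gain GLUT4 as they become fat cells.

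Irs2 was the member with the largest difference between groups, so the sequence upstream of its start is shown beside those of the other IRS docking genes that hold the same elements. The windows are the 250 bases before the RefSeq gene start in GRCm38.p6, written 5′ to 3′ on the minus strand, on which all 3 genes lie, and they were chosen after the values were seen. Capitals mark CACGTG, the E-box that basic helix-loop-helix factors such as SREBP and USF bind, and TGTTTTG, a core named for insulin response elements that forkhead factors of the FOXO family bind.
Irs2 (chr8:11008930-11009179): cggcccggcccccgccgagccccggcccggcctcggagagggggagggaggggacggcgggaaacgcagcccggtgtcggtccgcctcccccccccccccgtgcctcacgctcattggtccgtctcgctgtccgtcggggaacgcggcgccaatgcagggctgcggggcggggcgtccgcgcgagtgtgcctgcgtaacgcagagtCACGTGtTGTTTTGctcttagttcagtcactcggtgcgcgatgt
Irs1 (chr1:82291440-82291689): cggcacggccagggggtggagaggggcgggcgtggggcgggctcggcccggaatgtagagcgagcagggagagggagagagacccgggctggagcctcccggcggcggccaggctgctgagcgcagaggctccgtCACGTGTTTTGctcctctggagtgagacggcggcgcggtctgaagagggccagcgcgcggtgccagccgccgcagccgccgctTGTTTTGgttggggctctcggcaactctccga
Irs4 (chrX:141725218-141725467): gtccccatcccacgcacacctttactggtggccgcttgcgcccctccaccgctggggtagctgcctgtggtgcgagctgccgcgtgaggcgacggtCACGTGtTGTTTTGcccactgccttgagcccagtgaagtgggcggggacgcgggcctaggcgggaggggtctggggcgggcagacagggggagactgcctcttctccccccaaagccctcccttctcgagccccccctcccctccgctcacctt

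In Irs2 and Irs4 the E-box and the core are separated by the same single base, with the core starting 7 bases after the E-box, at -37 in Irs2 and at -147 in Irs4, counted from the gene start. In Irs1 they overlap, with the core starting 4 bases after the E-box at -111, and a second core starts at -32. Irs3, the docking gene found in rodents, has neither element in its window. Searched on both strands over 32851 RefSeq windows of the same length, CACGTG was present in 6.02%, TGTTTTG in 5.56%, and both with starts within 15 bases of each other in 7 windows (0.0213%), which belong to 1700019P21Rik, Irs1, Irs2, Irs4, Klf11, Pcbp1 and Pyroxd1. The windows of Irs1, Irs2 and Irs4 were shown because they hold both elements, so their place among the 7 is no test. A match says only that these letters are present. Irs4 has no annotated probe on the array and Irs1 stayed within background, so no shared change in level stands behind the matches. AGGTCA in direct repeat spaced by 1 base, the element of PPARγ with RXR, was in 0.0335% of windows and in 0 windows of the members, of which Insr and Slc2a4 have no window in the table. With so rare an exact repeat, its absence from a few short windows was nearly certain beforehand. That absence is therefore no result about PPARγ sites of the members.

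Insr encodes the receptor itself, and 1 of its 3 probes was detected, a probe for which the annotation gives no transcript. That probe had intensities of 942 and 1450 in null GFP+ 1 and 3, 860 in het GFP+ and 744 in null GFP−. Both null GFP+ libraries lay above the others, an order found in 30.1% of the genes tested. However, null GFP+ 1 was closer to het GFP+ than to null GFP+ 3. The difference between null GFP+ and het GFP+ was 0.48 on the log2 scale, with a standard error of 0.38 and a 95% interval of -0.48 to 1.45 (limma with Benjamini-Hochberg adjustment, adjusted p = 0.626). Against null GFP− it was 0.72, with an interval of -0.24 to 1.69 (limma, adjusted p = 0.492). The null GFP+ libraries themselves were 0.68 apart, and the difference from het GFP+ was 0.82 with null GFP+ 3 alone and 0.15 with null GFP+ 1 alone. The interval of Insr included 0 in both comparisons, so neither a difference nor its absence was shown. The other Insr probes, among them a probe annotated to a RefSeq transcript, were not well above background. Their intensities were 104 to 140 over both probes and the 4 libraries, so the Insr values rest on the bright probe alone.

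Irs2 encodes a docking protein that the activated receptor phosphorylates and that insulin itself represses. Its intensities were 1394 and 1647 in null GFP+ 1 and 3, 641 in het GFP+ and 785 in null GFP−. Both null GFP+ libraries were above both other libraries, and the het GFP+ library was the lowest. A total of 30.1% of the genes tested had both null GFP+ libraries above both others, so that order alone does not set Irs2 apart. The mean of null GFP+ was 2.59-fold that of het GFP+, a log2 difference of 1.37 with a standard error of 0.29 and an interval of 0.63 to 2.11. The unadjusted p was 0.00495 and the adjusted p 0.0919 in limma, and 606 of the 9975 genes had a smaller p. In limma the adjusted p was 0.0203 without background correction, 0.047 with an offset of 50 and 0.03 with eBayes with trend. Whether Irs2 passed therefore depended on the background correction, the offset and the variance model. Against null GFP− the log2 difference was 1.04, with an interval of 0.30 to 1.78 (limma, unadjusted p = 0.0153, adjusted p = 0.172). The difference kept its sign with either null GFP+ library left out, at 1.50 and 1.25 against het GFP+ and at 1.17 and 0.91 against null GFP−. Beside these values, the summed fat cell and endothelial markers were also higher in null GFP+.

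Irs1, the other widely expressed docking protein, gave intensities of 112 and 132 in null GFP+ 1 and 3, 112 in het GFP+ and 128 in null GFP−. All 4 values were within the range of background, and the lowest detection p was 0.0598. No level can therefore be compared for Irs1.

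**Figure D1:**
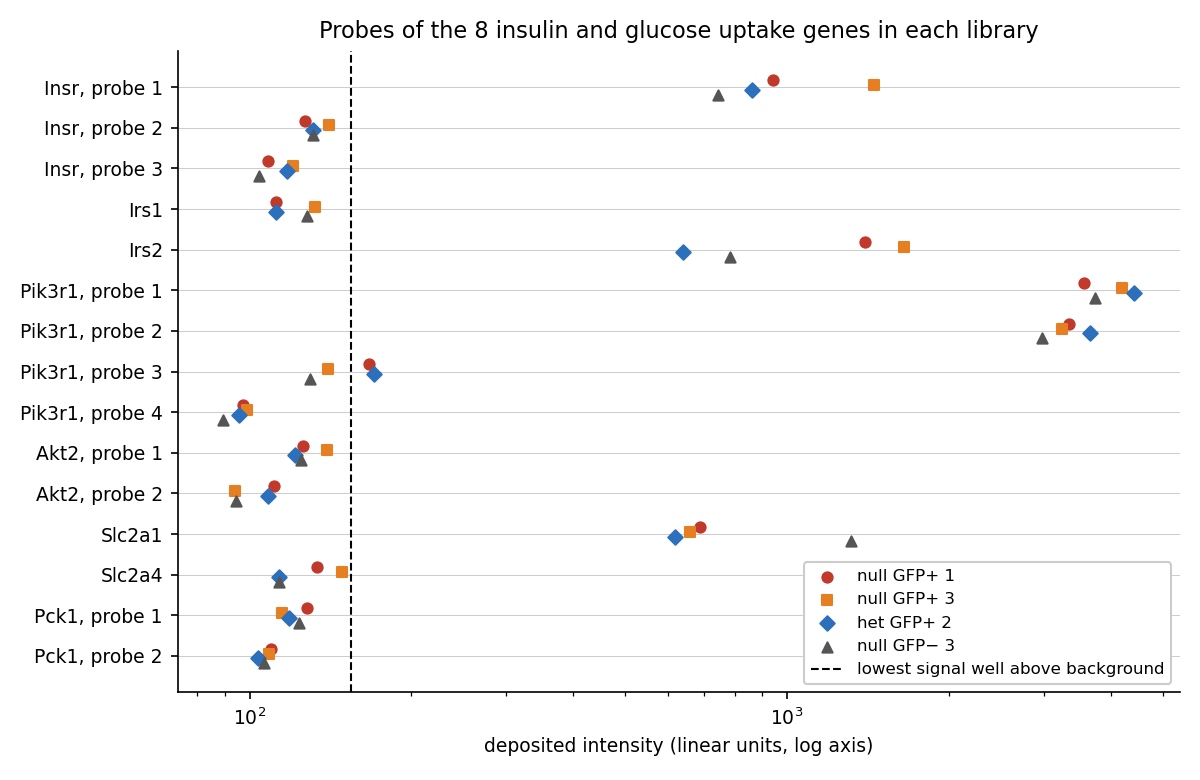
Deposited intensity (linear units on a log axis) of each of the 15 probes of the 8 genes, with 1 point per library and the lowest signal well above background, 154, as a dashed line. Irs2 is higher in both null GFP+ libraries, Slc2a1 is highest in the null GFP− library, and all probes of Irs1, Akt2, Slc2a4 and Pck1 lie left of the line.

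Pik3r1 encodes the regulatory subunit of PI3K that binds phosphorylated docking proteins, and was measured by 3 probes above the detection limit. The brightest gave 3575 and 4192 in null GFP+ 1 and 3, 4424 in het GFP+ and 3745 in null GFP−. A second gave 3345 and 3242, 3665 and 2978 in the same order. On both probes het GFP+ was the highest library, and the 4 libraries lay close together. The log2 differences from het GFP+ were -0.20 and -0.16 for these probes, with an interval of -0.93 to 0.54 for the brightest, and those from null GFP− were 0.05 and 0.15 (limma, adjusted p of 0.815, 0.846, 0.973 and 0.889). The third tested probe, annotated to the same gene, was near background at 167, 140, 170 and 129 in that order. It was detected on 2 arrays and lay below 154 in null GFP+ 3 and null GFP−, so no size of difference is given, and it did not pass (limma, adjusted p of 0.703 against het GFP+ and 0.556 against null GFP−). The remaining probe was not well above background in any library, at 89 to 99.

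Akt2, the AKT isoform best known for insulin-stimulated glucose uptake in fat and muscle, was not measured above background by either of its probes. The brighter gave 126 and 139 in null GFP+ 1 and 3, 122 in het GFP+ and 125 in null GFP−, with a lowest detection p of 0.0331. The other lay between 94 and 111.

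Slc2a1 encodes GLUT1, the transporter of basal glucose uptake. Its intensities were 690 and 661 in null GFP+ 1 and 3, 618 in het GFP+ and 1317 in null GFP−. The 3 GFP+ libraries lay close together, and the null GFP− library stood above all of them. The log2 difference between null GFP+ and null GFP− was -1.07, with a standard error of 0.27 and an interval of -1.77 to -0.37 (limma, unadjusted p = 0.0108, adjusted p = 0.141). It passed without background correction, with an adjusted p of 0.0426. Between null GFP+ and het GFP+ the log2 difference was 0.15, with an interval of -0.55 to 0.85 (limma, adjusted p = 0.858). Het GFP+ was lower than null GFP− by a log2 difference of -1.22, which rests on 1 library each and has no replicate check. Among the 9975 genes, 74 (0.742%) shared the property of a null GFP− level over 2-fold above each of the other libraries.

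Slc2a4 encodes GLUT4, the transporter that insulin moves to the surface of fat and muscle cells. Its intensities were 134 and 149 in null GFP+ 1 and 3, and 113 in both het GFP+ and null GFP−. All 4 were below 154 and the lowest detection p was 0.0139, so no level can be compared and no fold is given.

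Pck1 encodes the cytosolic phosphoenolpyruvate carboxykinase that starts glyceroneogenesis in fat. Its brighter probe gave 128 and 115 in null GFP+ 1 and 3, 118 in het GFP+ and 123 in null GFP−, and its other probe lay between 104 and 109. Neither was above background in any library.

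**Figure D2:**
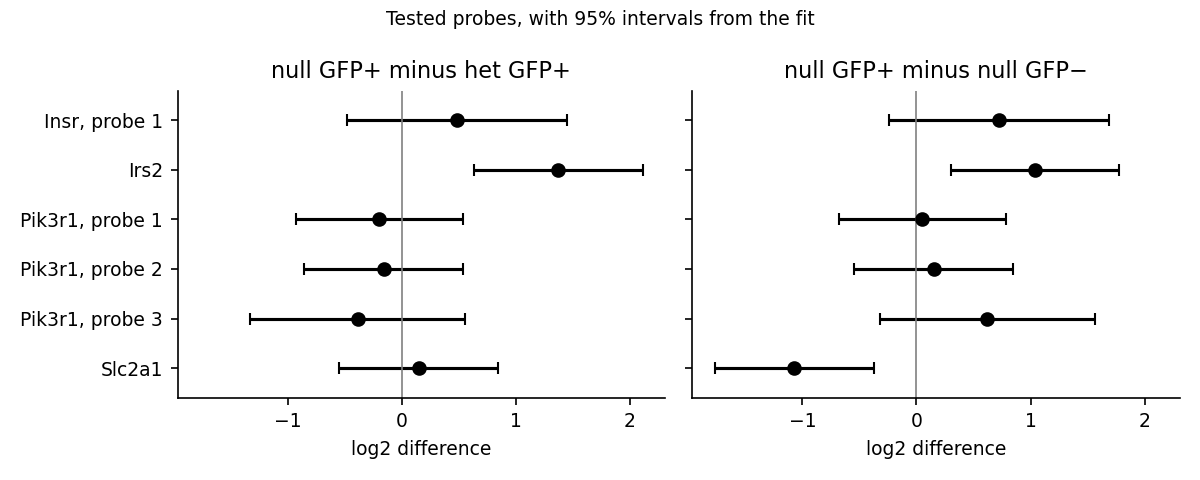
Log2 difference of each of the 6 tested probes between null GFP+ and het GFP+ (left) and between null GFP+ and null GFP− (right), with bars for the 95% interval of the limma fit. The intervals of Irs2 lie above 0 in both panels, that of Slc2a1 lies below 0 on the right, and all others cross 0. The third Pik3r1 probe was near background in every library.

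Counted together, 0 of the 4 tested members passed an adjusted p under 0.05 between null GFP+ and het GFP+ in limma, where 3.92% of all genes passed. At an unadjusted p under 0.05, 1 member (Irs2) passed, against 16.9% of all genes. Between null GFP+ and null GFP−, 0 of 4 passed where 3.94% of all genes did, and 2 members (Irs2 and Slc2a1) had an unadjusted p under 0.05, against 16.2% of all genes. Of the same 4 genes, 1 (Slc2a1) was over 2-fold apart between het GFP+ and null GFP−, against 3.05% of all genes. After Benjamini-Hochberg adjustment, the methods' t-test also called 0 members in both comparisons. The comparisons with null GFP+ share both null GFP+ libraries, so that they are not independent of each other. With 4 tested genes, a count near the background was not a result about the members.

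**Figure D3:**
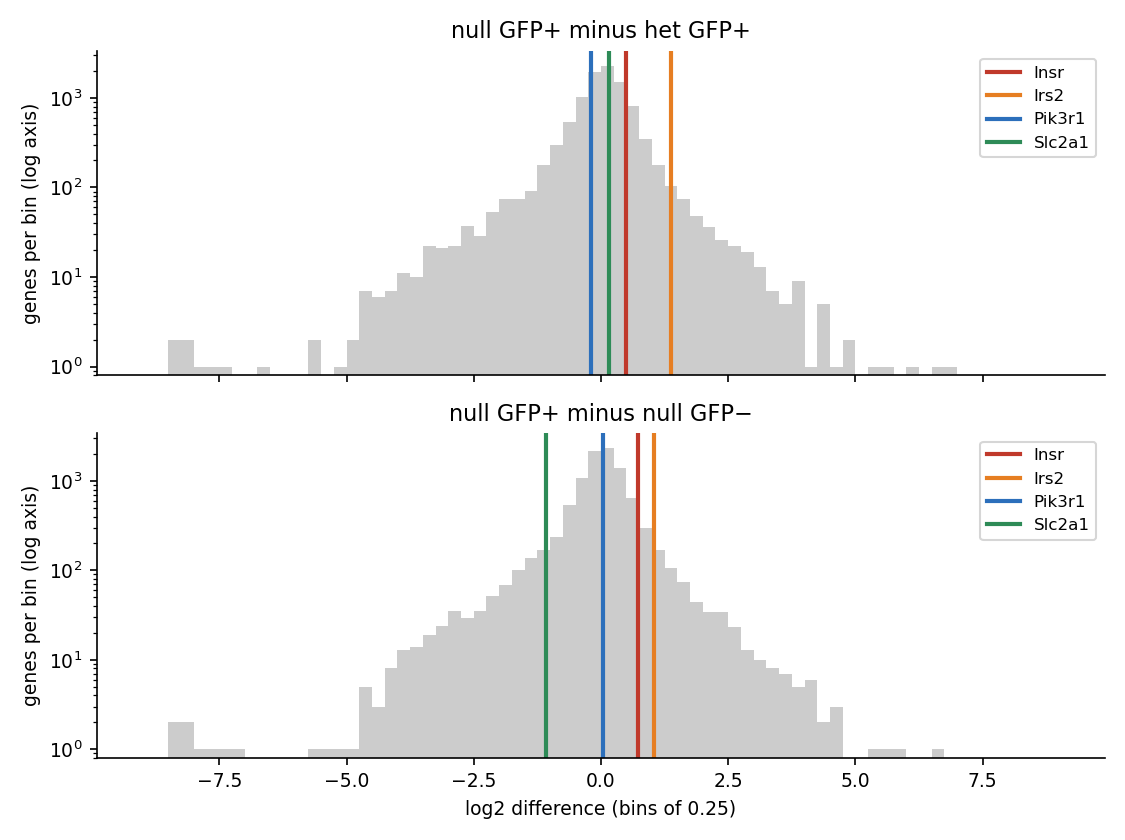
Number of genes (log axis) per bin of 0.25 in log2 difference, over the 9975 tested genes, between null GFP+ and het GFP+ (top) and between null GFP+ and null GFP− (bottom), with a line at each tested member. Irs2 stands to the right at 1.37 and 1.04, Slc2a1 to the left at -1.07 in the lower panel only, and Pik3r1 near the middle of both.

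The genes whose profile over the 4 libraries was nearest to a member's were found by the distance between log2 values, each centred on its own mean. Nearest to Irs2 were Nlrc5 (distance 0.0654), Fndc5 (0.0684) and Llgl2 (0.122). Nearest to Insr were Chd6 (0.0582), Axin2 (0.0728) and Sipa1l1 (0.0754), and nearest to Slc2a1 were Slc25a34 (0.138), Lpar2 (0.146) and Aldh1b1 (0.160). Those of Insr were above background in all 4 libraries, as was Fndc5. Nlrc5 and Llgl2 were above it in 2 libraries, Slc25a34 and Lpar2 in 1 and Aldh1b1 in 0, so their distances rest in part on background values, and for Slc2a1 no likeness can be read from them.

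Around the members, a list of 107 genes of the pathway by role was examined, of which 95 were annotated on the array and 74 were tested. Between null GFP+ and het GFP+, 1 gene (Sort1) rose and 3 genes (Inpp5d, Hk3 and Slc2a6) fell, 5.41% of those tested against 3.92% of all genes (1.31% higher and 2.61% lower), and the median log2 difference was 0.12 against 0.05 over all genes. Between null GFP+ and null GFP− the calls were again Sort1 upward and Inpp5d, Hk3 and Slc2a6 downward, 5.41% against 3.94% of all genes (1.3% higher and 2.64% lower), and the median was 0.04 against 0.02. Inpp5d, Hk3 and Slc2a6 were detected on 2 arrays each and were above 154 in het GFP+ and null GFP− only, and so entered the test through the groups where they were high. With detection required on all 4 arrays, 65 genes of the list were tested and 1 (Sort1) was called in each comparison. All 4 lost their call when the filter on dim probes was removed, with adjusted p between 0.0565 and 0.0853 over both comparisons.

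Sort1 encodes sortilin, a sorting receptor that in fat cells takes part in forming the vesicles that store GLUT4. Its intensities were 1965 and 2104 in null GFP+ 1 and 3, 605 in het GFP+ and 673 in null GFP−. The null GFP+ libraries were close to each other and well above both others, and the log2 difference was 1.92 against het GFP+ and 1.74 against null GFP− (limma, adjusted p of 0.0346 and 0.0440). Among the 15 transporter and trafficking genes it was the one called upward. The gene called downward there was Slc2a6, which encodes GLUT6 and gave 120 and 114 in null GFP+ 1 and 3, 212 in het GFP+ and 241 in null GFP−. As null GFP+ was not well above background, a lower bound is given on the background-corrected scale, where Slc2a6 was at least 1.94-fold lower in null GFP+ than in het GFP+ and at least 2.40-fold lower than in null GFP− (limma, adjusted p of 0.0338 and 0.0249). Bounds of this kind set the lowest signal well above background in place of the dim group, and hold only after background correction. Without that correction, ratios of dim probes are smaller, and the log2 differences of Slc2a6 were -0.86 and -1.04 (limma, adjusted p of 0.0630 and 0.0326), so that the call against het GFP+ was lost. In the same role, Slc2a3, another glucose transporter gene, was above 154 in all 4 libraries. It gave 323 and 229 in null GFP+ 1 and 3, 715 in het GFP+ and 986 in null GFP−. Its log2 differences were -1.81 and -2.33, and it did not pass (limma, adjusted p of 0.102 and 0.0539). Without background correction and with eBayes with trend, Slc2a3 was called in both comparisons.

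Of 10 tested genes of PI3K and its brakes, Inpp5d fell. It encodes SHIP1, a phosphatase that removes the lipid product of PI3K and is known mainly from blood cells. Its intensities were 125 and 122 in null GFP+ 1 and 3, 280 in het GFP+ and 326 in null GFP−. On the background-corrected scale it was at least 3.04-fold lower in null GFP+ than in het GFP+ and at least 3.78-fold lower than in null GFP− (limma, adjusted p of 0.0192 and 0.0177), and without correction the log2 differences were -1.18 and -1.40. In the same role, Pik3r3, another regulatory subunit, had values of 372, 422, 238 and 213 in the order null GFP+ 1, null GFP+ 3, het GFP+ and null GFP−, and Pik3cd, the catalytic subunit known from leukocytes, had 150, 161, 221 and 302. Neither of these passed, with limma's adjusted p against null GFP− at 0.0953 and 0.0504.

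Among 18 genes of glucose phosphorylation and glycolysis, Hk3 fell. It encodes hexokinase 3, an isoform known from myeloid cells, and gave 125 in each null GFP+ library, 283 in het GFP+ and 247 in null GFP−. On the background-corrected scale it was at least 3.08-fold lower in null GFP+ than in het GFP+ and at least 2.50-fold lower than in null GFP− (limma, adjusted p of 0.0192 and 0.0278), and without correction the log2 differences were -1.18 and -0.98. Beside the falls of Inpp5d and Hk3, 13 of 13 mast cell and neutrophil markers were lower in null GFP+ than in het GFP+ by the same test. Of the macrophage markers 7 of 11 were lower, against 2.61% of all genes. In each null GFP+ library, 3 of the 13 mast cell and neutrophil markers were above background. Many of the 13 were above background only in het GFP+ and null GFP−, and so entered the test through the groups where they were high. The part of mast cells, neutrophils and macrophages in the falls of Inpp5d and Hk3 was not tested.

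No gene of the other 3 roles passed in either comparison. Of 11 receptor, docking and adaptor genes, the smallest adjusted p belonged to Cav1, the coat protein of caveolae, in which insulin receptors of fat cells reside, and to Irs2. Cav1 had intensities of 8238 and 6545 in null GFP+ 1 and 3, 2488 in het GFP+ and 2495 in null GFP−, with log2 differences of 1.60 and 1.59 (limma, adjusted p of 0.0693 and 0.0692). It was called in both comparisons without background correction, with normexp without detection p-values, with an offset of 50 and with eBayes with trend. Whether Cav1 passed therefore depended on the processing. Of 13 genes of AKT and its targets, Trib3, a pseudokinase that binds AKT, came nearest, with 251 and 250 in null GFP+ 1 and 3, 415 in het GFP+ and 375 in null GFP− and log2 differences of -1.03 and -0.84 (limma, adjusted p of 0.161 and 0.236). Foxo1, a transcription factor that AKT keeps out of the nucleus, had an adjusted p of 0.395 against het GFP+ in limma, and Eif4ebp1, a repressor of translation downstream of AKT, had 0.700 against null GFP−.

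Of 7 genes of glyceroneogenesis and pyruvate cycling, Slc25a10, the mitochondrial dicarboxylate carrier, gave 489 and 743 in null GFP+ 1 and 3, 287 in het GFP+ and 300 in null GFP−, with log2 differences of 1.39 and 1.29 (limma, adjusted p of 0.178 and 0.202). Gpd1, which makes glycerol phosphate from a glycolytic intermediate, gave 163 and 264 in null GFP+ 1 and 3, 128 in het GFP+ and 129 in null GFP− (limma, adjusted p of 0.281 and 0.303). Gpd1 was above 154 in the null GFP+ libraries only, and so entered the test through the group where it was high. In both genes null GFP+ 3 was the highest library, as it was for Insr and Irs2. Other genes differed, since Cav1 was highest in null GFP+ 1, Pik3r1 in het GFP+ and Slc2a1 in null GFP−. The share of all genes with null GFP+ 3 highest was not counted, so no shared trait is read from this. The summed fat cell and mural markers were also highest in null GFP+ 3, and the part of those cells in these values was not tested.

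**Figure D4:**
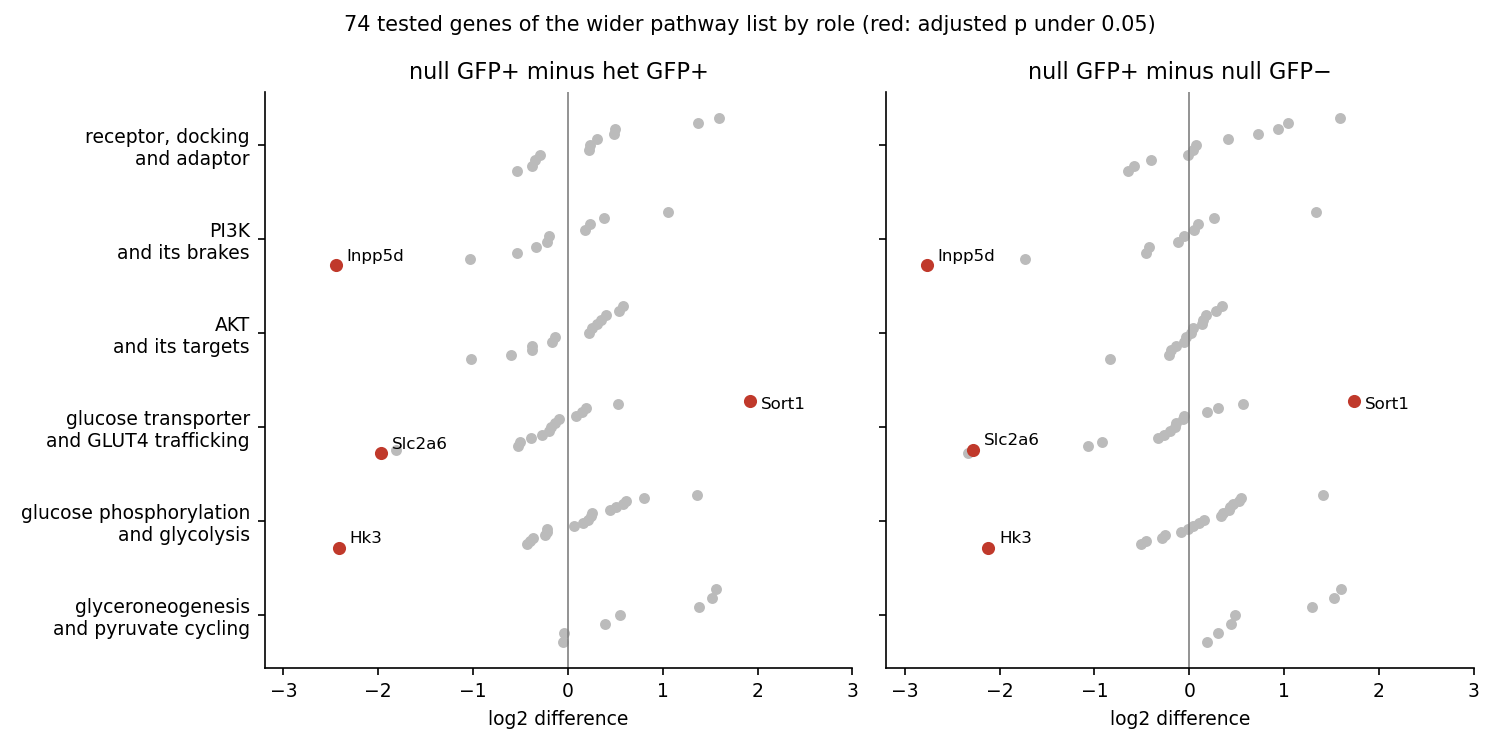
Log2 difference of the 74 tested genes of the wider pathway list, 1 point per gene, grouped by role, between null GFP+ and het GFP+ (left) and between null GFP+ and null GFP− (right). Red points have an adjusted p under 0.05 in limma, which are Sort1 upward and Inpp5d, Hk3 and Slc2a6 downward in both panels.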

How the data were processed

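Probe intensities, linear in scale, and a second table of signals with detection p-values were deposited by the authors, whose normalization no source used here states. The intensities already shared a distribution, since sorted values differed by at most 0.380% from the mean of the arrays. Names of the 4 signal columns in the second table match no label. Those signals stayed out, and the deposited detection p-values entered only where the identity of the column plays no part. Background was corrected with normexp fitted with detection p-values (mean 108, SD 13.6), an offset of 16 was added, and log2 and quantile normalization followed. A signal under 154 was taken as not well above background.

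Of 45281 probes, 34885 had 1 gene symbol. Those detected at p under 0.01 in 1 or more libraries, 17379 in all, were tested with limma 3.58.1 in R 4.3.3 (lmFit and eBayes, two-sided, 4 libraries in 3 groups, 1 residual and 4.03 prior degrees of freedom, Benjamini-Hochberg over those probes). Each of 9975 genes was represented by its brightest tested probe. The fit was tested on simulated data. The members, the pathway list and the marker lists were chosen with earlier results of these data known. Named genes were all probes of the members, Pparg, genes of each pathway role that passed (up to 4 in each direction) or, where none passed, the 2 with the smallest adjusted p, and the 3 genes nearest in profile to a member. Genes named outside that rule, Pik3r3, Pik3cd and Slc2a3, were chosen after their values were seen. Alternatives were another background correction, offset, filter, normalization, variance model, probe and choice of libraries, and the methods' t-test. The number of arrays limits the precision.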

Additional observations from a re-analysis of the deposited data

How the results depend on the processing

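No paired analysis was possible because null GFP+ and het GFP+ share no replicate number and null GFP+ and null GFP− share only number 3. Of 108 alternative values for the member probes, 107 kept their direction. The exception was the brightest Pik3r1 probe against null GFP−, at 0.05 with both null GFP+ libraries and -0.07 without null GFP+ replicate 3. Removing the filter, eBayes with trend and the t-test leave the difference itself unchanged, so their direction was fixed in advance. Leaving out quantile normalization hardly moved it, as the arrays already shared a distribution. The count of kept directions is therefore no measure of robustness. Of the 84 values with a test, 79 stayed on their side of the threshold and 5 passed it (Irs2 and Slc2a1); the 24 that leave out a null GFP+ library have no test. Between null GFP+ and het GFP+, 1 member (Irs2) instead of 0 was called without background correction, with normexp without detection p-values, with an offset of 50, and with eBayes with trend. Against null GFP−, 1 member (Slc2a1) was called without background correction and by the methods' t-test at over 2-fold and unadjusted p under 0.05. The calls among the wider pathway genes, 4 in each comparison, moved to 7 against het GFP+ and 7 against null GFP− with normexp without detection p-values and with eBayes with trend, to 8 against null GFP− without background correction and to 7 with an offset of 50. They moved to 0 in both comparisons with no filter on dim probes and by the Benjamini-Hochberg adjusted t-test, and to 1 in both with detection on all 4 arrays. For all genes, 391 calls against het GFP+ became 593 without background correction, 625 with normexp without detection p-values, 588 with eBayes with trend, 169 with detection on all 4 arrays, 54 with no filter and 5 by the adjusted t-test. The 393 calls against null GFP− became 633, 173, 0 and 5 with normexp without detection p-values, detection on all arrays, no filter and the adjusted t-test. Leaving the het GFP+ library out, a setting chosen after seeing the data, kept 0 member calls and 4 pathway calls against null GFP−. The cause of these shifts was not tested. The number of arrays and the signal over background limit what the dim members can show.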
